A study of Mus musculus with 6 samples.

Results

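A set of 10 genes of the circadian clock and its output were followed in mouse interscapular brown adipose tissue after a day in the cold. They are the period genes Per1, Per2 and Per3, the cryptochrome Cry2, the repressor Bhlhe41, the activator Arntl, the nuclear receptors Nr1d1 and Nr1d2, and the output factors Dbp and Tef. They were chosen by name, with earlier results of these data known, as all transcripts that the GENCODE M21 annotation assigns to these genes. They make up 10 of the 21730 genes with at least 1 read, and 36 of the 59371 transcripts with a read. All mice were male wild type C57BL/6N animals, 20 weeks old, from a colony held at 22 to 24 °C under a 12 h light cycle. The cold group (mice 4, 11 and 15) spent its last 24 h singly housed at 4 °C, and the ctrl group (mice 2, 9 and 14) carries no treatment beyond that label. Polyadenylated RNA of each mouse was read as direct cDNA on Oxford Nanopore flow cells, a method that reads long cDNA molecules without amplification. Neither the clock time of harvest nor the number of mice per cage in the ctrl group is stated in the labels. A response to temperature and a difference in either therefore cannot be told apart. The labels give the tissue as interscapular brown fat, although their extraction text speaks of eWAT.

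The mammalian clock is a transcriptional feedback loop. BMAL1, the product of Arntl, pairs with CLOCK and activates genes that carry E-boxes, among them the Per, Cry, Nr1d and Dbp genes, and the PER and CRY proteins then shut this activation down. In a second loop the REV-ERB receptors, made from Nr1d1 and Nr1d2, repress Arntl through elements that the ROR receptors use to activate it. DBP, TEF and HLF carry the rhythm to output genes through D-boxes. Transcripts of most of these genes rise and fall over the day in many tissues, and in brown fat REV-ERB alpha is known as a repressor of Ucp1.

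Dbp, Per3, Bhlhe41 and Tef were lower in the cold, by 1.99-fold, 1.90-fold, 1.78-fold and 1.35-fold. Nr1d1 was 1.37-fold higher. Per1, Per2, Cry2 and Nr1d2 did not pass the test, and Arntl had too few reads to enter it. Of the 9 members tested, 5 were called (adjusted p below 0.05, edgeR quasi-likelihood test), while 19.5% of the 8684 genes tested were called. The 1 member called higher stands against 9.75% of all genes called higher, and the 4 called lower against 9.77% called lower. The median log2 fold change (cold minus ctrl) was -0.44 over the 9 members and 0.00 over all genes tested. The groups did not overlap in 6 of the 9 tested members, and in 35.1% of all genes tested. Because the members were chosen with earlier results of these data known, these shares are a description and not a test of the set. Fewer cells of a type and less RNA per cell cannot be told apart in these whole-tissue samples.

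The 6 libraries held 1657985 to 2238056 reads, and 15661 to 16418 genes had a read in a given library. A count of 3 reads corresponded to 1.34 to 1.81 CPM (reads scaled to a common library size), and mitochondrially encoded RNA took 29.7 to 32.5% of reads in ctrl and 27.6 to 29.0% in cold, without overlap. The 7 brown adipocyte markers were read in every library and summed to 17134 to 19126 CPM in ctrl and 20772 to 21566 CPM in cold, with 3 called higher and 1 lower. The 8 skeletal muscle markers summed to 70.6 to 486 CPM in ctrl and 203 to 2596 CPM in cold, with ctrl 2 lowest and cold 15 highest. Of these 8 markers 0 were called by edgeR, and Myh1 was at 0 in a library. The 5 white adipocyte markers summed to 102 to 163 CPM in ctrl and 296 to 329 CPM in cold. Of the 4 of these that were tested, 3 were called higher, and Agt was at 0 in a library. The 6 endothelial markers summed to 246 to 257 CPM in ctrl and 284 to 312 CPM in cold, with 1 called higher and 1 lower. The 5 fibroblast markers summed to 226 to 275 CPM in ctrl and 206 to 266 CPM in cold, and 2 of the 4 tested were called lower. The part of white adipocyte, endothelial and fibroblast RNA in the results was not tested. With the muscle marker level as a term in the fit, the edgeR adjusted p was 0.00236 for Dbp, 0.0466 for Per3 and 0.0102 for Bhlhe41. Tef (0.0509) and Nr1d1 (0.221) lost their calls. The log2 fold change of Tef was -0.46 with the term and -0.44 without it, and that of Nr1d1 was 0.38 and 0.45. Over all genes 1695 were called without the term and 1158 with it. In that fit Per1 (log2 fold change 0.87, adjusted p = 0.00847) and Cry2 (-0.79, 0.0441) passed the threshold.

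Promoter windows close to the RefSeq start sites of the members were searched for exact letters of some clock elements. RefSeq windows on build GRCm38.p6, from 250 bases before to 50 bases after a start site, were found for 9 of the 10 members (12 windows). All were searched on both strands for the E-box CACGTG, the E-box variant CACGTT, the D-box in the forms TTATGTAA and TTACGTAA, the ROR element core in the forms TAGGTCA and TGGGTCA, and the cAMP response element TGACGTCA. None of these motifs contains another. Of the windows with a match, 7 are printed from 5′ to 3′ on the gene's strand, because they cover each kind of element found. Capitals mark the match, and AACGTG is the E-box variant read from the other strand.
Per3 promoter, chr4:151044616-151044915 minus strand: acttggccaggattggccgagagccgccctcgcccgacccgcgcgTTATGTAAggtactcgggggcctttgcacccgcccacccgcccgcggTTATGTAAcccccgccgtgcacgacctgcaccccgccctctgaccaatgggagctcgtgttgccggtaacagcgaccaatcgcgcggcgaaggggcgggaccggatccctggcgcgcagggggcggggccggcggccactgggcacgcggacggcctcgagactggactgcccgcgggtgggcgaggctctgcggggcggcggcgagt
Per1 first promoter window, chr11:69098699-69098998 plus strand: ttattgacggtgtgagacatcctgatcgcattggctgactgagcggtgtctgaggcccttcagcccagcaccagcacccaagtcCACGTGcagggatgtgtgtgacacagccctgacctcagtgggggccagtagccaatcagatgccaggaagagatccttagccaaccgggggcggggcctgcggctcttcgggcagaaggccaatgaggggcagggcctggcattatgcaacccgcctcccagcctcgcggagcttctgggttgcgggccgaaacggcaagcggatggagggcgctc
Bhlhe41 promoter, chr6:145865371-145865670 minus strand: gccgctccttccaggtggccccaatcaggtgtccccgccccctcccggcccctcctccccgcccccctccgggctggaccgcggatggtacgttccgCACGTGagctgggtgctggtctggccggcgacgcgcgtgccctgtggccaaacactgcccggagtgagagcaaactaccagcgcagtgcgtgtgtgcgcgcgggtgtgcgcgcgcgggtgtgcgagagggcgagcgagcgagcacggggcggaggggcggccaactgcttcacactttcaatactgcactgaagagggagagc
Tef upstream promoter, chr15:81802423-81802722 plus strand: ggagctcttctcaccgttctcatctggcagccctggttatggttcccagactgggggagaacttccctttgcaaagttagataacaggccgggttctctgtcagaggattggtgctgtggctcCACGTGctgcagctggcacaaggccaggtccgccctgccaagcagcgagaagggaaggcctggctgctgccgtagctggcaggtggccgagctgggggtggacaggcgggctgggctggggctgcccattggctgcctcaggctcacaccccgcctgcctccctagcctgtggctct
Tef downstream promoter, chr15:81811164-81811463 plus strand: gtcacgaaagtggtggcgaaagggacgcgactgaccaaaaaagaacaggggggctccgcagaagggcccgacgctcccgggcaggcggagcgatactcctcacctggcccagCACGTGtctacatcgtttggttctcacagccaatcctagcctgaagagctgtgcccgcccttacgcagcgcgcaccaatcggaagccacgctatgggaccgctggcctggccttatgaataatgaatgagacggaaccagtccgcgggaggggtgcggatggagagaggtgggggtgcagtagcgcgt
Nr1d1 promoter, chr11:98775328-98775627 minus strand: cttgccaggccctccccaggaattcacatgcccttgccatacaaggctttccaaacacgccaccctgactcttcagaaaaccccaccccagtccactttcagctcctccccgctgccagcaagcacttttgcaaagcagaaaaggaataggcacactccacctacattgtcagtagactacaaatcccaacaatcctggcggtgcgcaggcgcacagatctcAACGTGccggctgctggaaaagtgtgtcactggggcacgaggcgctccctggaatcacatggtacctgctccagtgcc
Arntl second promoter window, chr7:113207261-113207560 plus strand: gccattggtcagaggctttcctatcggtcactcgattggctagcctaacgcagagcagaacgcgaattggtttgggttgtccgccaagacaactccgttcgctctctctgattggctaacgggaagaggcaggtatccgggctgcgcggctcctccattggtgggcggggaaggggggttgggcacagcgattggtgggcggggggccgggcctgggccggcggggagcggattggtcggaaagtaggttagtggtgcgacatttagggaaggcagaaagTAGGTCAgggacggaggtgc

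The Per3 window held the D-box TTATGTAA at 2 places, beginning 205 and 158 bases before the start site, and 0.938% of the 32851 RefSeq promoter windows held that form at all. The E-box CACGTG lay in 4 member windows and in 7.15% of all windows. It began 166 bases before the first of the 2 Per1 starts that have a window, 153 before that of Bhlhe41, and 127 and 138 before the 2 Tef starts. All these distances are from RefSeq starts, and some GENCODE transcripts counted here begin elsewhere. Tef-202 begins at base 81802421, so the whole upstream Tef window lies downstream of its start. Bhlhe41-201 begins at base 145865558, upstream of the RefSeq start at 145865420. The E-box variant, in 4.68% of all windows, began 28 bases before the Nr1d1 start and 166 before the Cry2 start. The ROR core TAGGTCA, in 2.61% of all windows, began 31 bases after the second Arntl start. TTACGTAA, TGGGTCA and the cAMP response element were in 0 of the 12 member windows and in 0.119%, 3.98% and 1.79% of all windows. The windows of Dbp and Nr1d2, the first of Arntl and the second of Per1 held none of these letters. Of the 3 genes with an E-box in these windows, Bhlhe41 and Tef were called lower in the cold, and Per1, at a mean of 30.7 CPM in cold and 21.4 CPM in ctrl, did not pass the test. Dbp and Per3, with no CACGTG in their windows, were also called lower, and Nr1d1, with the variant, was called higher. Elements outside these windows, including any of Dbp, were not searched for. Nor were other spellings of these elements within the windows, so a window without a match may still carry one.

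**Figure D1:**
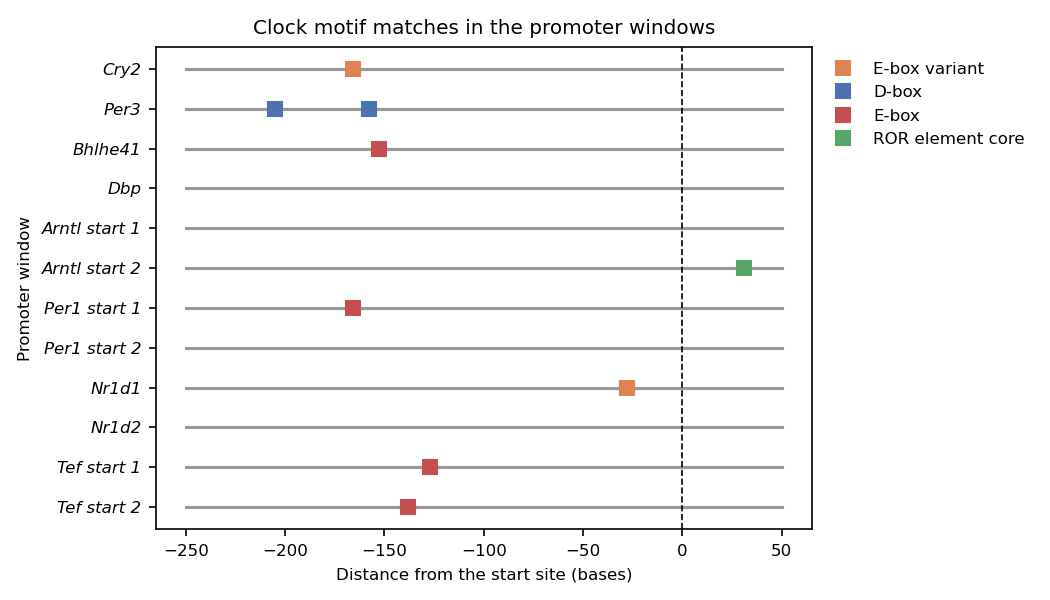
Motif matches in the 12 promoter windows of 9 members, by distance from the RefSeq start site in bases (dashed line). A square marks each match, coloured by motif. Per3 alone among these windows has D-box squares, at 205 and 158 bases before its start, and 4 windows have no square.

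Levels are given as CPM scaled by edgeR's TMM factors, in the order ctrl 2, 9 and 14 and cold 4, 11 and 15, with the mean ± SD over 3 mice per group. Fold changes are those of the edgeR fit, and intervals are its 95% intervals.

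The PER proteins are the inhibitors whose accumulation closes the main loop. Per3 (chr4:151003652-151044665) was at 23.7, 23.5 and 32.1 CPM in ctrl and at 19.8, 10 and 11.6 CPM in cold. Every cold mouse was below every ctrl mouse, and cold 4 was the highest of the cold group. The means were 26.4 ± 4.91 and 13.8 ± 5.25 CPM (SD, n = 3), a log2 fold change of -0.93 (SE 0.23, interval -1.41 to -0.44, edgeR adjusted p = 0.00676). The adjusted p rose to 0.0520 without cold 11 and to 0.0583 without ctrl 14. It was 0.0835 with DESeq2. In edgeR it was 0.0902 on flow cell 1 alone and 0.055 with both ctrl 2 and cold 15 left out.

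Per1 (chr11:69095217-69109960), a period gene known to be induced quickly by outside signals, was at 30.7, 17.4 and 16.3 CPM in ctrl and at 34.3, 30.6 and 27.4 CPM in cold. Mouse ctrl 2 was within the cold range, and the other ctrl mice were below all cold mice. The log2 fold change was 0.55 (SE 0.21, interval 0.12 to 0.99) and did not pass the test (edgeR adjusted p = 0.0680). It was 0.88 with an adjusted p of 0.00586 without ctrl 2.

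Per2 (chr1:91415982-91459324), a period gene needed for a lasting rhythm, was at 16.2, 8.17 and 12.1 CPM in ctrl and at 19.3, 12.0 and 9.32 CPM in cold. The groups overlapped across most of their range. Its log2 fold change was 0.20 (interval -0.40 to 0.80, edgeR adjusted p = 0.699), an interval that allows a change of either sign. The sign turned when cold 4 (-0.16) or ctrl 9 (-0.02) was left out.

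Cry2 (chr2:92403646-92434043), a light-insensitive cryptochrome that acts with the PER proteins, was at 15.0, 21.9 and 25.6 CPM in ctrl and at 14.5, 13.0 and 14.6 CPM in cold. The groups did not overlap, but ctrl 2 lay just above the highest cold mouse. Its log2 fold change was -0.59 (SE 0.22, interval -1.05 to -0.14) and missed the threshold (edgeR adjusted p = 0.0631). Without ctrl 2 it was -0.76 with an adjusted p of 0.0216.

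Bhlhe41 (chr6:145858243-145865558) encodes DEC2, a repressor that competes at E-boxes. It was at 20.8, 35.7 and 21.9 CPM in ctrl and at 11.1, 17.5 and 15.7 CPM in cold. The groups did not overlap, and ctrl 9 stood above the other ctrl mice. The log2 fold change was -0.83 (SE 0.24, interval -1.32 to -0.34, edgeR adjusted p = 0.0161). The call was lost without ctrl 9 (log2 fold change -0.54, adjusted p = 0.132) and without cold 4 (-0.65, 0.0981). DESeq2 (adjusted p = 0.151) and edgeR on flow cell 2 alone (0.495) did not call it either. An opposite-strand gene, Gm43909, covers 1280 bases of its exons (19.0%) and held 4 reads.

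**Figure D2:**
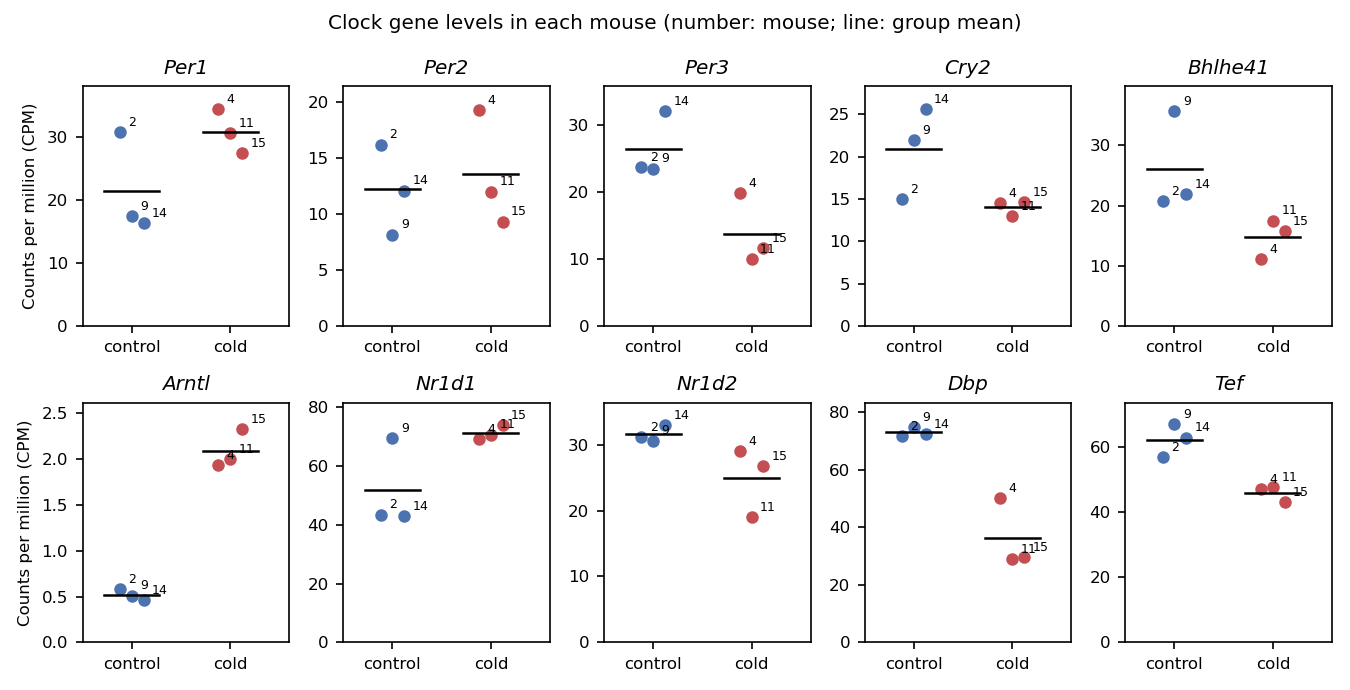
Level of each member in each mouse in CPM, with ctrl in blue, cold in red, the mouse number beside each point and a line at the group mean. All cold mice lie below all ctrl mice for Per3, Cry2, Bhlhe41, Nr1d2, Dbp and Tef, and Arntl points rest on 1 to 4 reads each.

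Arntl (chr7:113207465-113314126), the positive arm of the loop, was near the detection limit. Each ctrl library held 1 read and each cold library held 4, or 0.579, 0.510 and 0.465 CPM in ctrl against 1.93, 2.00 and 2.33 CPM in cold. The groups did not overlap. It failed the minimum-count filter, so it was not tested in the reported fit. In the alternative without that filter 6 members were called, namely Per1, Per3, Nr1d1, Dbp, Tef and Bhlhe41, and Arntl was not. The ratio of cold to ctrl reads, scaled by library totals, was 4.23 with an exact counting interval of 1.14 to 23.4, which covers counting error only.

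The REV-ERB receptors are heme-binding repressors. Nr1d1 (chr11:98767932-98775333) was at 43.4, 69.4 and 42.8 CPM in ctrl and at 69.1, 70.6 and 73.9 CPM in cold. Ctrl 9 was within the range of the cold mice, and the other ctrl mice were well below it. The log2 fold change was 0.45 (SE 0.16, interval 0.13 to 0.78, edgeR adjusted p = 0.0497). This call was close to the threshold. It was lost when any mouse but ctrl 9 was left out: the adjusted p was 0.182 without ctrl 2, 0.213 without ctrl 14, 0.111 without cold 4, 0.130 without cold 11 and 0.129 without cold 15. Without ctrl 9 the log2 fold change was 0.72 and the adjusted p was 0.000624. DESeq2 did not call Nr1d1 (adjusted p = 0.204). Nor did edgeR on flow cell 2 alone (0.432), with the muscle term (0.221) or with ctrl 2 and cold 15 left out (0.297). Thra, on the opposite strand, shares 263 exonic bases with Nr1d1 (8.55% of its exons) and was not called (log2 fold change -0.06, edgeR adjusted p = 0.819).

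Nr1d2 (chr14:18204054-18239127) was at 31.2, 30.6 and 33.0 CPM in ctrl and at 29.0, 19.0 and 26.8 CPM in cold. The ctrl mice lay close together and above every cold mouse. Its log2 fold change of -0.35 (SE 0.17, interval -0.71 to 0.01) did not pass the test (edgeR adjusted p = 0.178), and it was -0.18 without cold 11.

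Dbp (chr7:45705088-45710203), a PAR bZIP activator and a direct output of CLOCK and BMAL1, had the lowest adjusted p of the members. It was at 71.7, 75.0 and 72.6 CPM in ctrl and at 50.2, 29.1 and 29.7 CPM in cold. The ctrl mice lay within a few CPM of each other, and all cold mice were below them, with cold 4 in between. The means were 73.1 ± 1.70 and 36.3 ± 12.1 CPM (SD, n = 3), a log2 fold change of -1.0 (SE 0.17, interval -1.34 to -0.65, edgeR adjusted p = 0.000324). Over all 15 alternatives its adjusted p lay between 8.13e-11 and 0.0100. Sphk2, on the opposite strand, shares 539 exonic bases with Dbp (18.0% of its exons), held 153 reads against 640, and was not called (log2 fold change 0.18, edgeR adjusted p = 0.677). The use of strand in the authors' counting is not given in the sources used here, so reads of overlapping genes on opposite strands may not be fully separated.

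Tef (chr15:81802421-81826863), a second PAR bZIP activator, was at 56.7, 66.9 and 62.8 CPM in ctrl and at 46.9, 47.6 and 43.1 CPM in cold. All cold mice were below all ctrl mice, and the spread within each group was small. A log2 fold change of -0.44 was fitted (SE 0.12, interval -0.69 to -0.18, edgeR adjusted p = 0.0141). The adjusted p was 0.0597 without ctrl 9 and 0.0552 without cold 15.

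Each direct cDNA read stands for a single molecule, so levels are compared by CPM. By mean CPM, Dbp (73.1), Tef (62.1) and Nr1d1 (51.9) led in ctrl, and Nr1d1 (71.2), Tef (45.8) and Dbp (36.3) in cold. Dividing by the length of the most read transcript gave another order, which favours short transcripts. On that scale Dbp led in ctrl at 39.8 ± 0.925 CPM per kb (SD, n = 3), above Nr1d1 at 19.1 ± 5.58 and Tef at 14.1 ± 1.16. The ranges of these 3 neighbours did not overlap. Nr1d2 followed at 6.78 CPM per kb, then Cry2 (5.25), Per1 (4.59), Per3 (4.41) and Bhlhe41 (4.26), whose neighbouring ranges overlapped from Cry2 to Bhlhe41. Per2 at 2.08 and Arntl at 0.174 CPM per kb came last. In cold the order per kilobase began with Nr1d1 at 26.2 ± 0.913 CPM per kb, then Dbp at 19.8 ± 6.56 and Tef at 10.4 ± 0.549. The ranges of Nr1d1 and Dbp overlapped in cold, with cold 4 the highest for Dbp. Per1 (6.58) and Nr1d2 (5.35) came next with overlapping ranges, followed by Cry2 at 3.53. Bhlhe41 (2.41), Per2 (2.32) and Per3 (2.30) overlapped at the lower end, above Arntl at 0.702 CPM per kb. This order depends on dividing by length, and by mean CPM Tef was above Nr1d1 in ctrl and above Dbp in cold.

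Ratios of read counts between related members within a library do not depend on the scaling between libraries. Per1 to Per3 was 1.29, 0.739 and 0.507 in ctrl and 1.73, 3.05 and 2.35 in cold, and Per2 to Per3 was 0.469 ± 0.186 in ctrl and 0.992 ± 0.200 in cold (SD, n = 3). Both ratios were higher in every cold mouse than in every ctrl mouse. Nr1d1 to Nr1d2 was 1.39, 2.27 and 1.30 in ctrl and 2.38, 3.71 and 2.76 in cold, also without overlap. Dbp to Tef was 1.27, 1.12 and 1.16 in ctrl and 1.07, 0.611 and 0.689 in cold, so Dbp was below Tef in 2 of the 3 cold mice. Dbp to Hlf was 2.51 ± 0.247 and 1.84 ± 0.555, and Per1 to Per2 was 1.79 ± 0.400 and 2.42 ± 0.591 (SD, n = 3), both with overlapping groups. Of the 8 ratios computed, 4 did not overlap. Each of these 4 had p = 0.10 in a two-sided exact permutation test (0.20 after Benjamini-Hochberg adjustment over the 8), and 0.10 is the smallest p that 3 mice against 3 allow. Tef to Hlf was 2.13 ± 0.230 and 2.33 ± 0.0982, and Bhlhe41 to Bhlhe40 was 0.316 ± 0.0864 and 0.335 ± 0.0427 (SD, n = 3), both with overlapping groups.

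**Figure D3:**
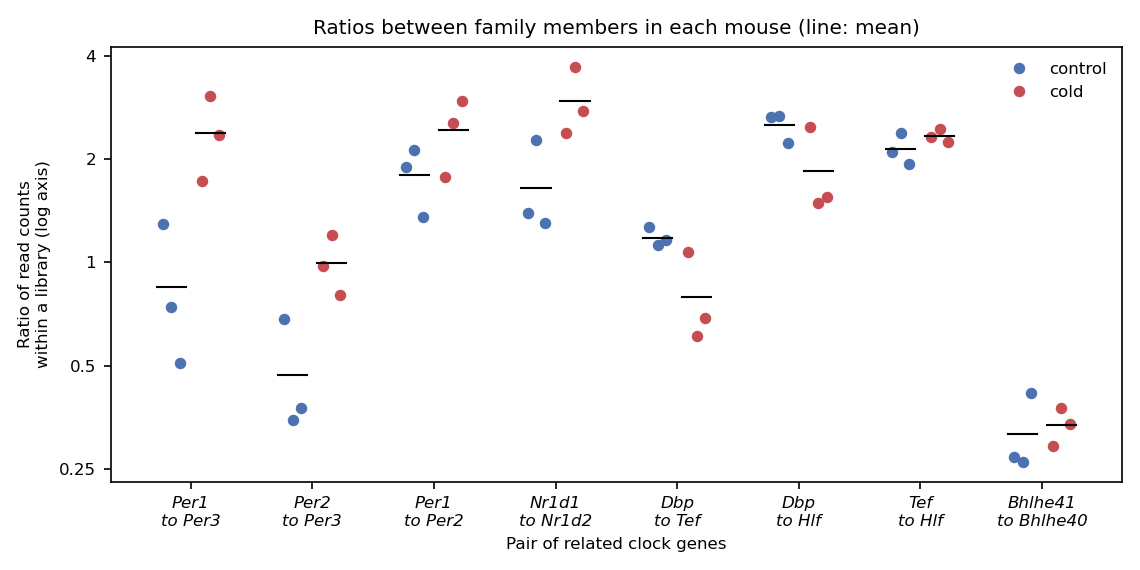
Ratio of read counts between 8 pairs of related clock genes in each mouse, on a log axis, with ctrl in blue, cold in red and a line at the group mean. The cold points lie above the ctrl points for Per1 to Per3, Per2 to Per3 and Nr1d1 to Nr1d2, and below them for Dbp to Tef.

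Of the 47 transcripts annotated to the members, 36 had a read and 11 were tested. Of these 11, 3 were called, all lower in the cold, while 16.3% of all transcripts tested were called. Dbp-201, the coding form with 77.8% of Dbp reads, went from 59.4 ± 3.73 to 28.5 ± 9.10 CPM (SD, n = 3, edgeR adjusted p = 5.98e-05). Tef-202, the longer coding form with 72.2% of Tef reads, went from 46.9 ± 4.61 to 33.4 ± 2.27 CPM (edgeR adjusted p = 0.0199). This call was lost without ctrl 9 (adjusted p = 0.0874), without ctrl 14 (0.0682) and without cold 11 (0.0925). Tef-201, which starts at the downstream promoter and held 19.4% of Tef reads, was at 12.4 ± 0.708 and 9.05 ± 4.34 CPM and was not called (log2 fold change -0.43, edgeR adjusted p = 0.367). Its log2 fold change was -0.86 without cold 11 and -0.18 without cold 15. Bhlhe41-201 held every Bhlhe41 read and was called lower (log2 fold change -0.84, edgeR adjusted p = 0.0123), a call lost without ctrl 9 (log2 fold change -0.55, adjusted p = 0.149) and without cold 4 (0.101).

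Several genes were read almost entirely as a single coding form, namely Per2-201 (100%), Nr1d1-201 (99.7%), Cry2-201 (97.1%) and Nr1d2-201 (92.7%). None of these 4 transcripts was called, and Nr1d1-201 had an edgeR adjusted p of 0.0559, just above the gene's own value. Per1 reads were spread over Per1-201 (41.2%), Per1-203 (32.2%), Per1-202 (14.3%) and Per1-206 (11.0%). Per1-201 and Per1-203 end at the same base and begin at 69098948 and 69100522. Reads that stop short of the 5′ end may not separate forms that differ at their start, such as these or Tef-201 and Tef-202. This was not tested. Per1-203 was at 6.38 ± 3.27 CPM in ctrl and 11.0 ± 2.73 CPM in cold (log2 fold change 0.82, edgeR adjusted p = 0.0947). Without ctrl 2 these were 1.27 and 0.0230. Per1-201 was at 9.34 ± 2.08 and 12.5 ± 4.96 CPM (log2 fold change 0.46, edgeR adjusted p = 0.323), with a log2 fold change of 0.07 without cold 4. Per3-201 held 69.2% of Per3 reads and was not called (log2 fold change -0.86, edgeR adjusted p = 0.0596). It was -1.31 without cold 4 (adjusted p = 0.0112), -0.51 without ctrl 14 (0.350) and -0.61 without cold 11 (0.237). Per1 and Tef had 2 tested transcripts each, and their proportions did not pass the test (Simes adjusted p = 1 for both; unadjusted 0.671 and 0.931), where 0.195% of 2568 genes were called.

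A large share of Per3 reads lay on transcripts annotated as retained introns, nonsense-mediated decay targets or other forms outside the protein-coding class. These took 41.5, 39.1 and 21.7% of its reads in ctrl and 24.4, 35.0 and 30.0% in cold, and the ranges overlapped. Pooled, they were 50 of 156 reads in ctrl (32.1%, Wilson 95% interval 25.2 to 39.7%) and 23 of 81 in cold (28.4%, interval 19.7 to 39.0%). These intervals cover counting error only and not the spread between mice. Each pooled share lay within the other's interval. A difference between the groups was not tested, and each library held only 20 to 69 Per3 reads. The nonsense-mediated decay form Per3-203 held 10.5% of Per3 reads. In Dbp the share was 9.84% in ctrl and 9.39% in cold.

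A list of 32 other clock genes was read beside the members. Of the 31 with a read, 23 were tested, 5 were called higher and 3 lower (34.8%, against 19.5% of all genes). That list too was chosen with earlier results of these data known, so its share is a description. Their median log2 fold change was -0.03. Npas2 is not analysed here.

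The PAR bZIP activators bind D-boxes. Hlf, the third PAR bZIP activator, was at 27.2, 28.1 and 32.6 CPM in ctrl and at 20.3, 19.5 and 19.2 CPM in cold, without overlap (log2 fold change -0.58, edgeR adjusted p = 0.0206). Its adjusted p was 0.0602 without cold 11, 0.103 without ctrl 14 and 0.0535 without cold 15. Dbp, Tef and Hlf were each called lower, where 9.77% of all genes were, which is a description only. The calls of Tef and Hlf were lost with DESeq2 (adjusted p = 0.239 and 0.310). In edgeR they were lost on flow cell 1 alone (0.0667 and 0.0538) and on flow cell 2 alone (0.0602 and 0.234). They were also lost with the muscle term (0.0509 and 0.0562), at log2 fold changes of -0.46 and -0.62. Bhlhe40, the paralog of Bhlhe41, was at 77.0, 136 and 52.6 CPM in ctrl and at 38.2, 46.6 and 46.6 CPM in cold. Its groups did not overlap, but the ctrl mice were widely spread and it was not called (log2 fold change -1.02, edgeR adjusted p = 0.215). It passed without ctrl 9, at a smaller log2 fold change of -0.56 (adjusted p = 0.0226), and without ctrl 14 (-1.30, 0.0125).

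Clock, the partner of BMAL1, was at 17.0 ± 3.18 CPM in ctrl and 24.7 ± 5.73 CPM in cold (SD, n = 3), with overlapping groups, and was not called (edgeR adjusted p = 0.0812, and 0.0357 without cold 4). Cry1, the second cryptochrome, was too sparse to be tested in the reported fit. It was at 2.31, 2.55 and 2.33 CPM in ctrl and at 4.83, 5.51 and 4.66 CPM in cold, and every cold mouse was above every ctrl mouse. Its 14 ctrl and 29 cold reads gave a ratio of 2.19 (exact counting interval 1.12 to 4.49). Arntl2, a paralog of Arntl, held 16 reads in each group.

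Among enzymes that modify the PER and CRY proteins, the deubiquitinase Usp2 rose from 54.7 ± 7.45 to 94.0 ± 2.25 CPM (SD, n = 3, log2 fold change 0.78, edgeR adjusted p = 4.79e-05). The kinase subunit Csnk2a1 rose by 0.41 on the log2 scale (edgeR adjusted p = 0.00446) and was called in 12 of 15 alternatives. Its call was lost on flow cell 2 alone (0.0533), with the muscle term (0.0784) and with ctrl 2 and cold 15 left out (0.0887). The phosphatase catalytic subunits parted, with Ppp1ca at -0.56 (9.64e-05) and Ppp1cb at 0.31 (0.0105, and 0.0604 without ctrl 2). The Ppp1cb call was also lost with DESeq2 (adjusted p = 0.0545). In edgeR it was lost with the muscle term (0.108) and with ctrl 2 and cold 15 left out (0.0811). Of the 12 genes tested in this group of enzymes, 8 were not called.

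Among clock-controlled outputs, Noct, the rhythmic gene for nocturnin, was at 79.8, 76.5 and 69.3 CPM in ctrl and at 153, 148 and 157 CPM in cold. It rose 2.03-fold, without overlap (log2 fold change 1.02, edgeR adjusted p = 1.35e-07), and was called in all 15 alternatives. Nampt, the NAD salvage enzyme, was lower (log2 fold change -0.35, edgeR adjusted p = 0.00849) and was called in 11 of 15 alternatives. DESeq2 did not call it (adjusted p = 0.0996). Nor did edgeR on flow cell 2 alone (0.108), with the muscle term (0.0548) or with ctrl 2 and cold 15 left out (0.0911). Wee1, too sparse to be tested in the reported fit, held 32 reads in ctrl and 8 in cold. Its ratio of cold to ctrl reads was 0.265 (exact counting interval 0.105 to 0.586). Of 4 proteins that associate with PER complexes, only Sfpq was called (0.45, adjusted p = 0.0407). That call was lost without each mouse but cold 15: the adjusted p was 0.0738 without ctrl 2, 0.132 without cold 4, 0.161 without ctrl 9, 0.0994 without cold 11 and 0.0624 without ctrl 14.

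**Figure D4:**
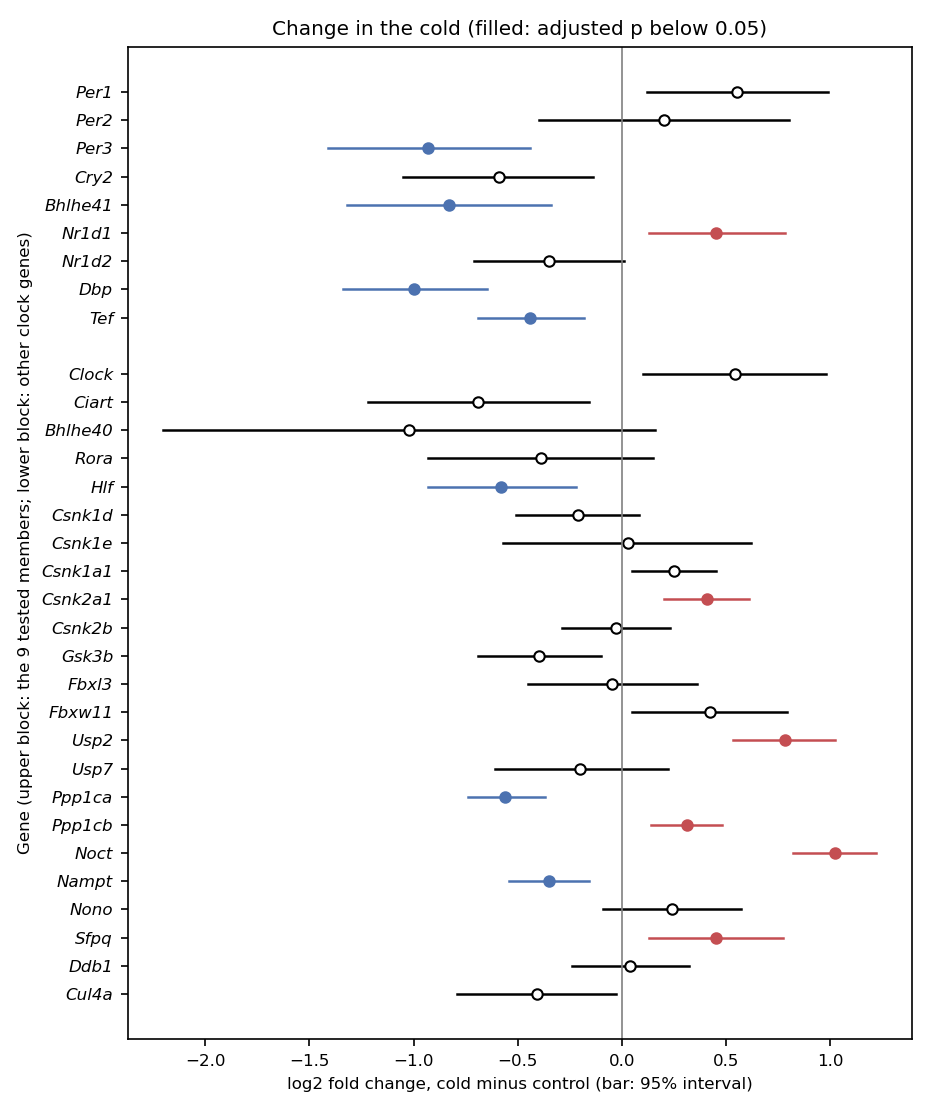
Log2 fold change (cold minus ctrl) with its 95% interval for the 9 tested members and the 23 other clock genes tested, filled where the edgeR adjusted p was below 0.05 (blue lower, red higher). Dbp, Tef and Hlf lie on the lower side at -1.0, -0.44 and -0.58, and Noct lies farthest to the higher side at 1.02.

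The genes whose levels followed Dbp most closely, among 6484 genes with a mean of at least 10 CPM, were Gstm2 (Pearson r = 0.991), Ets1 (0.990) and Zdhhc2 (0.990). The correlation is over 6 libraries in 2 groups and is a description, since the libraries share depth and group. Gstm2, a glutathione transferase, was at 32.4, 32.2 and 36.3 CPM in ctrl and at 22.2, 13.5 and 12.2 CPM in cold. Like Dbp, it was highest in cold 4 among the cold mice.

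Processing choices bore unevenly on the members. Dbp was called lower in all 15 alternatives, Bhlhe41 in 11 of 15, Per3 in 9 of the 14 in which it was tested, and Tef in 8 of 15. Nr1d1 was called higher in 6 of 15. Per1 was called higher in 4 and Cry2 lower in 3 of 15, while Nr1d2 was called in 0 of 15 and Per2 in 0 of 14.

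**Figure D5:**
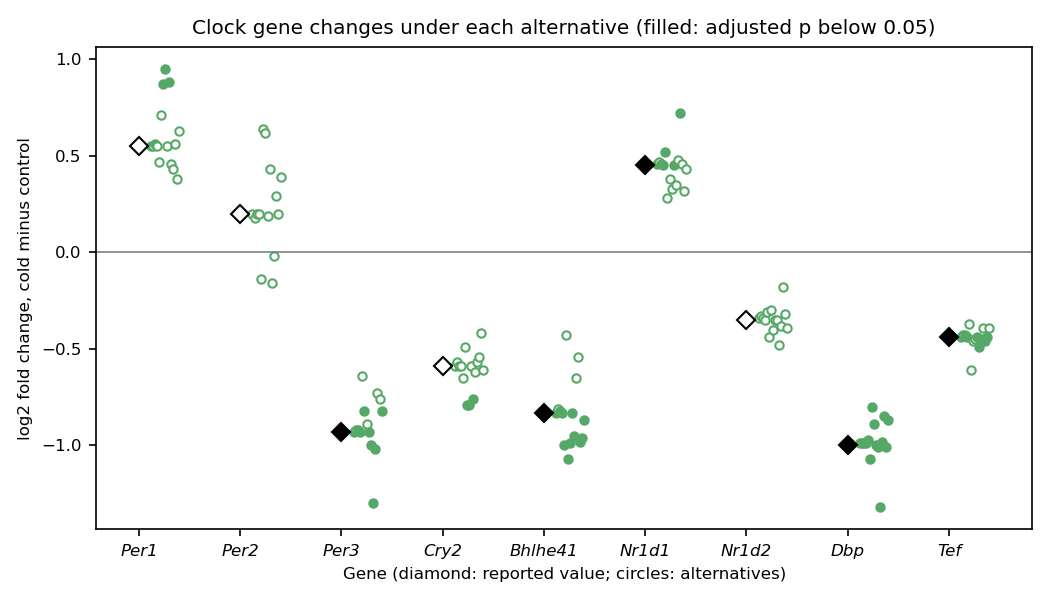
Log2 fold change (cold minus ctrl) of the 9 tested members as reported (diamonds) and under each alternative processing (circles), filled where the adjusted p was below 0.05. Dbp is filled throughout, between -1.32 and -0.80, while Per2 circles lie on both sides of 0.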

How the data were processed

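Each mouse had 1 barcoded direct cDNA library, made from 100 ng of RNA after 2 rounds of poly(A) selection and read on 2 flow cells, per the labels' protocols. The authors deposited, for each library and flow cell, counts of reads per transcript; minimap2 and GRCm38 are named in the submitters' processing notes. Deposited counts were summed over both flow cells of a mouse, and over the transcripts of a gene by GENCODE M21 (172 transcripts with 0.084% of reads were unmatched). Genes and transcripts passing filterByExpr were tested on all 6 libraries with edgeR 4.0.16 (TMM, quasi-likelihood, robust, R 4.3.3) and Benjamini-Hochberg adjustment over all features tested, and transcript proportions with diffSpliceDGE. Scripts were tested on simulated data. Named were all members, their transcripts with at least 10% of reads or called, and other clock genes that were called or of a member's family. Wee1 was named too, as the 1 output gene not tested. The members and lists were chosen with earlier results of these data known. The labels number mice, so the p-values measure spread between animals. There were 12 alternatives fixed at the start and 3 added after seeing the data (a muscle marker term, 4 libraries, an older dispersion estimate). Protein sequences were not used here, and 1 gene of the list of other clock genes is not reported here.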

Additional observations from a re-analysis of the deposited data

How the results depend on the processing

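The number of members called was 5 as reported, 1 with DESeq2 1.42.0, 3 on flow cell 1 alone, 1 on flow cell 2 alone, and 3 to 6 when a mouse was left out. It was 3 without each of cold 4, ctrl 9, cold 11, ctrl 14 and cold 15, and 6 without ctrl 2, where Nr1d1 was lost and Per1 and Cry2 were gained. The number of other clock genes called was 8 as reported, 4 with DESeq2, 4 on flow cell 2 alone, 3 with the muscle term and 3 with 4 libraries (ctrl 2 and cold 15 left out). Over all genes 1695 calls became 820 with DESeq2, 837 with flow cell 2 alone, 1075 with 4 libraries and 1158 with the muscle term. The 3 member transcripts called became 1 with DESeq2, 1 with flow cell 2 alone, 5 with 4 libraries, 5 with the older dispersion estimate and 2 to 5 when a mouse was left out (5 without ctrl 2). The Per2 log2 fold change was -0.14 on flow cell 1 alone and ran from -0.16 to 0.43 over mice left out; for Per2-201 these were -0.14 and -0.17 to 0.42. Of 442 values for 30 single genes and transcripts, 347 kept their direction and side of the threshold, 66 lost a call, 23 gained one and 6 turned sign. The cause was not tested, although flow cells alone and left-out mice hold fewer reads or samples. No paired analysis was possible because the groups share no replicate numbers. Depth limits Arntl, with 1 to 4 reads per library, and the other members, with 16 to 156.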
